A study of Mus musculus with 6 samples.

Results

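The genes described here encode the proteasome, the protease complex that degrades ubiquitin-tagged proteins. They were chosen by symbol: every gene with a probe on the array whose symbol begins with Psma, Psmb, Psmc, Psmd, Psme or Psmf and a digit, which gave 46 genes on 56 probes. Of these, 44 genes passed the filter on dim probes and stood among the 14906 genes tested. The other two, Psma8 and Psmb11, did not. By their known roles the 46 genes comprise 14 standard subunits of the core particle, 5 inducible or tissue-restricted core subunits, 17 subunits of the regulatory particle, 3 chaperones that help to build its base, 4 activators and 1 inhibitor. The remaining pair, Psmc3ip, a partner of meiotic recombinases, and Psme3ip1, a protein that binds an activator, carry a proteasome symbol without being subunits.

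The core particle is a barrel of stacked rings. The outer rings of alpha subunits (Psma genes) form the gate, and the inner rings of beta subunits (Psmb genes) hold the protease sites. The regulatory particle caps the barrel: its ring of ATPases (Psmc genes) unfolds substrates, and its non-ATPase subunits (Psmd genes) bind ubiquitin chains and remove them. Activators (Psme genes) are alternative caps that open the gate without ATP, and Psmf1 is known as an inhibitor of the core. In dividing embryonic cells the complex sets the turnover of cyclins, transcription factors and misfolded proteins, and its genes are often regulated together by the factor Nfe2l1.

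Mouse embryos were dissected at embryonic day 9.5, and RNA was taken from the head together with the first branchial arch. The groups were 3 samples of wild type embryos and 3 of Arid3b-null embryos, which lack a transcriptional regulator of the ARID family; each sample pooled 4 embryos and was read on 1 one-colour Agilent array. The labels give no strain, allele or litter, and p-values reflect variation among these pools, which may be technical. The wild type arrays all occupied the first position of a slide and the null arrays the second, so genotype and slide position cannot be told apart. Each value is a log2 signal minus the 75th percentile of the same array, a scale on which levels of different probes are not comparable. Differences are given as null minus wild type, ± limma's standard error (n = 3 arrays per group), and a gene changed where its Benjamini-Hochberg adjusted p over all 14906 genes was under 0.05.

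On each array between 67.9% and 70.3% of spots stood well above background and none was saturated. Arid3b itself was 1.98, 2.26 and 3.09 on the wild type arrays and 1.27, 1.06 and 1.44 on the null arrays (log2 difference -1.19 ± 0.29, limma adjusted p of 0.0265). Leaving out any single null replicate ended this call, as did keeping dim probes (highest adjusted p of 0.0891), and where its probe lies relative to the deleted part was not examined. All 10 head and arch markers were measured, with summed signals of 32.1 to 34.3 times the 75th percentile in wild type and 35.5 to 40.1 in null heads. The brightest probes weigh most in all such sums. Here that was Otx2, at a mean of 3.87 in wild type and 4.45 in null heads, while the median marker difference was -0.02. Otx2 rose (0.57 ± 0.16) and Prrx1 and Dlx2 fell (-0.85 ± 0.17 and -1.13 ± 0.17, limma adjusted p of 0.0401, 0.0129 and 0.00542). Dlx2 held under all 16 alternatives at this threshold, Otx2 lost its call in 7 of them, and Prrx1 lost it in 3, with a difference of -0.09 for the mean of its probes. Summed signals overlapped between the groups for erythroid (633 to 855 against 488 to 1000), endothelial (5.94 to 9.59 against 5.52 to 6.82), heart (0.778 to 1.93 against 0.976 to 1.36) and macrophage markers (9.07 to 10.7 against 7.04 to 10.4). Of the macrophage markers Ptprc and Lyz2 did not pass the filter and Cd68 had no matched probe, while C1qa and C1qb fell (-1.13 ± 0.28 and -0.74 ± 0.18, limma adjusted p of 0.0290 and 0.0283); normexp put them at -0.38 and -0.40 and ended both calls, and of 16 alternatives C1qa lost its call in 8 and C1qb in 5. Of the heart markers Myl7 did not pass the filter, and of the erythroid markers Klf1 fell (-1.04 ± 0.24, limma adjusted p of 0.0216), a call lost in 3. The part of these markers in the results was not tested.

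The promoters shown are those of members that fell. The factor Nfe2l1, known for inducing proteasome genes, binds antioxidant response elements, so the core letters TGACNNNGC, with N for any base, were searched on both strands, as was CCAAT, the box bound by NF-Y. Psmb6 (a catalytic beta subunit) and Psmd9 (a base chaperone) are the members that fell and have TGACNNNGC in the window listed. Psmc2 and Psmc5, the base ATPases with the greatest falls, do not; of the 2 windows listed for Psmc2 the one with CCAAT is given. Each line holds the 250 bases before the gene's start in RefSeq (build GRCm38.p6, plus strand), with matches in capitals. The windows are chr11:70525107-70525356, chr5:123227940-123228189, chr5:21785025-21785274 and chr11:106255935-106256184 in this order.
Psmb6: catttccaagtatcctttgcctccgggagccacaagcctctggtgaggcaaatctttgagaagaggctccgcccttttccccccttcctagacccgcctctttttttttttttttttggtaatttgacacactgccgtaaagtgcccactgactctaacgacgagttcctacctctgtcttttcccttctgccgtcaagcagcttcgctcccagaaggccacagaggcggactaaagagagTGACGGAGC
Psmd9: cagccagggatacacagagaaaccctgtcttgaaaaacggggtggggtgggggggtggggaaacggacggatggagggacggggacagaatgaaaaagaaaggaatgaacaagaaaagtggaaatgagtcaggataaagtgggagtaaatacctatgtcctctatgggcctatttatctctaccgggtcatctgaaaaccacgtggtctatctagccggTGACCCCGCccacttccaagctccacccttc
Psmc2: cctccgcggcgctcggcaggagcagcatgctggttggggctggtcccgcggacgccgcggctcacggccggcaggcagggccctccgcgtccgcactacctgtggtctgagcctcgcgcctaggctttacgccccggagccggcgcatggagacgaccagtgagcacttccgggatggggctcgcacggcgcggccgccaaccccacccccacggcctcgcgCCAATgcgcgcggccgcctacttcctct
Psmc5: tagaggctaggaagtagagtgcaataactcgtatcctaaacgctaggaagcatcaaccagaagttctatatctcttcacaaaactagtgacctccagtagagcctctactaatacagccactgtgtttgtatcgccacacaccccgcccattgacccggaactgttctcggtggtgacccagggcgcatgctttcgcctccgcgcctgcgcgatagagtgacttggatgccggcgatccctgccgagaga
The match of Psmb6 begins 9 bases before the start, that of Psmd9 31 bases before it, and the CCAAT of Psmc2 28 bases before it. RefSeq windows were found for 39 of the 46 members. TGACNNNGC occurred in 5 of these (12.8%), against 11.5% of 27025 genes with a window of this length. CCAAT occurred in 16 (41.0%), against 37.5%. A match is a description of letters and not of a bound site.

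Proteasome gene signals tended to be lower in Arid3b-null heads. Of the 44 genes tested, 13 fell and none rose (limma, adjusted p under 0.05), where 23.5% of all genes changed, 11.2% lower and 12.3% higher. At an unadjusted p under 0.05, 30 members were lower and none higher. Of all genes tested 37.6% were under this threshold, 18.6% being higher and the rest lower. The counts of classes and lists at this threshold given below are to be read against these shares. The difference was negative for 40 of 44 members, against 53.2% of all genes, and the median member was at -0.50 on the log2 scale, against -0.04 over all genes. The groups did not overlap for 30 members (68.2%), where 42.4% of all genes had groups apart. The differences were small: they ran from -0.91 for Psmc2 to 0.49 for Psmb8, which passed the filter only through the null arrays, with the middle of the list, from its lower to its upper quartile, between -0.69 and -0.37. No test of the list as a whole was made. In bulk samples, fewer cells of a type and less RNA per cell cannot be told apart.

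**Figure D1:**
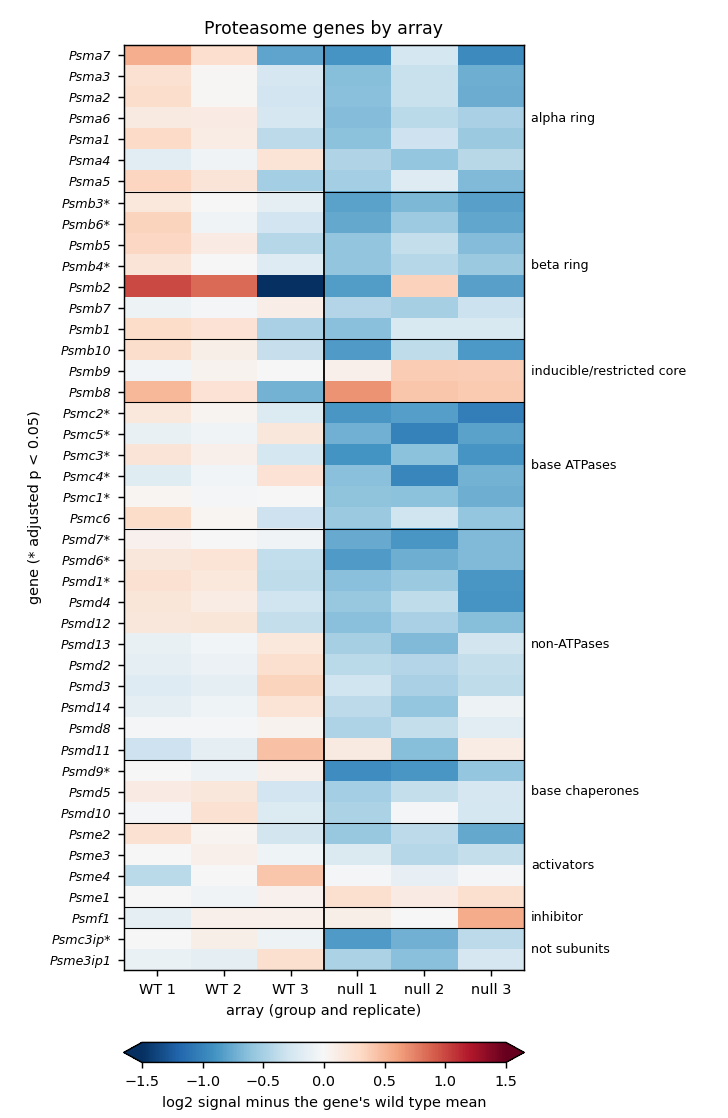
Log2 signal of each of the 44 measured genes (rows, by role) on each of the 6 arrays (columns), minus the mean of the gene on the wild type arrays; blue is lower, red is higher, colours stop at 1.5 in either direction, and asterisks mark an adjusted p under 0.05. The null columns are mostly blue, and on the array of wild type replicate 3 many core subunits are blue as well.

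The base ATPases, the ring of 6 motor subunits that unfolds substrates and threads them into the core, had the lowest median of the classes, -0.79. Of these 5 of 6 fell. Psmc2 was at 4.92, 4.81 and 4.56 on the 3 wild type arrays and at 3.89, 3.93 and 3.72 on the null arrays. All null arrays lay below all wild type arrays, and its signal was 1.88-fold lower (log2 difference -0.91 ± 0.15, limma adjusted p of 0.00688). Psmc5 was at 4.19, 4.25 and 4.47 in wild type and 3.58, 3.29 and 3.50 in null heads, 1.79-fold lower (-0.84 ± 0.15, limma adjusted p of 0.00888), again with the groups apart. In this gene wild type replicate 3 was the highest array of all, whereas in Psmc2 it was the lowest of the wild type arrays.

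Psmc3, whose C-terminal tail docks into the alpha ring, was at 6.36, 6.24 and 5.90 in wild type and 5.27, 5.56 and 5.28 in null heads (-0.80 ± 0.17, limma adjusted p of 0.0176). Psmc4 was at 3.98, 4.12 and 4.37 against 3.52, 3.18 and 3.44 (-0.77 ± 0.17, limma adjusted p of 0.0175). Psmc1 had the narrowest wild type spread of the 6 ATPases, at 5.83, 5.78 and 5.79, and was at 5.20, 5.18 and 5.06 in null heads (-0.65 ± 0.12, limma adjusted p of 0.0111). In each of these 3 genes no null array reached a wild type array. The ATPase that did not pass was Psmc6, at 2.40, 2.16 and 1.82 in wild type and 1.56, 1.82 and 1.55 in null heads, where null replicate 2 just exceeded wild type replicate 3 (-0.48 ± 0.19, 95% confidence interval -0.92 to -0.04, limma adjusted p of 0.106). In a limma fit over 26288 probes the dimmer probes of Psmc1 (-0.54), Psmc2 (-0.91) and Psmc3 (-0.58) were also called lower, while Psmb4, Psmb6 and Psmd1, described further on, were not called on the probes that stand for them (adjusted p of 0.0626, 0.0507 and 0.0606). Quantile normalization ended the call of Psmc4, and so did the deposited value table.

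**Figure D2:**
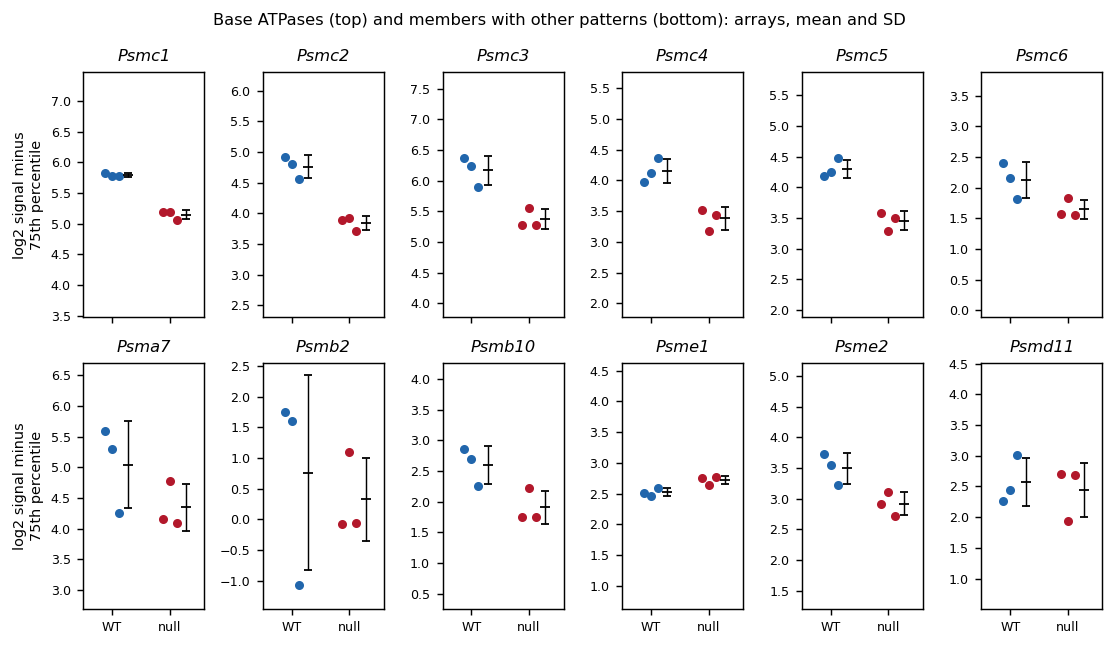
Log2 signal minus the 75th percentile of the array (vertical axes, each spanning 4 log2 units) for the 6 base ATPases in the upper row and 6 members with other patterns in the lower row; points are arrays in replicate order, blue wild type and red null, and the bars give mean and SD of 3 arrays. Psmc1 to Psmc5 have the groups apart, while wild type replicate 3 lies among the null arrays for Psma7 and below them for Psmb2.

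Of the 11 non-ATPase subunits of the regulatory particle 3 fell, all 11 differences were negative, and the median was -0.48. Psmd7, the lid subunit that pairs with the deubiquitinase Psmd14, was at 3.43, 3.36 and 3.31 in wild type and 2.60, 2.49 and 2.70 in null heads, 1.70-fold lower (-0.77 ± 0.13, limma adjusted p of 0.00734). Psmd6, also of the lid, was at 3.0, 3.04 and 2.47 against 1.99, 2.10 and 2.17 (-0.75 ± 0.18, limma adjusted p of 0.0280). Psmd1, a large scaffold of the base, was at 4.69, 4.61 and 4.07 against 3.82, 3.90 and 3.59 (-0.68 ± 0.20, limma adjusted p of 0.0466). The groups were apart in all 3 genes, narrowly so for Psmd1, where wild type replicate 3 stood close to null replicate 2.

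Several further subunits had groups apart without passing the test. They were the ubiquitin receptor Psmd4 (-0.61 ± 0.20, limma adjusted p of 0.0631, and 0.0304 in the fit blocked by slide, which called it lower), the lid subunits Psmd12 (-0.58 ± 0.18, 0.0574), Psmd13 (-0.48 ± 0.16, 0.0653), Psmd3 (-0.39 ± 0.17, 0.155) and Psmd8 (-0.33 ± 0.13, 0.119), and the base scaffold Psmd2 (-0.40 ± 0.15, 0.0959), the second value being the adjusted p. Psmd14, which cleaves ubiquitin chains from substrates, overlapped between the groups (-0.35 ± 0.18, 95% confidence interval -0.77 to 0.07). The difference nearest to 0 among these 11 was that of Psmd11, a lid subunit, at 2.27, 2.43 and 3.02 in wild type and 2.71, 1.93 and 2.69 in null heads. There the arrays were interleaved (-0.13 ± 0.28, 95% confidence interval -0.80 to 0.54, limma adjusted p of 0.781).

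**Figure D3:**
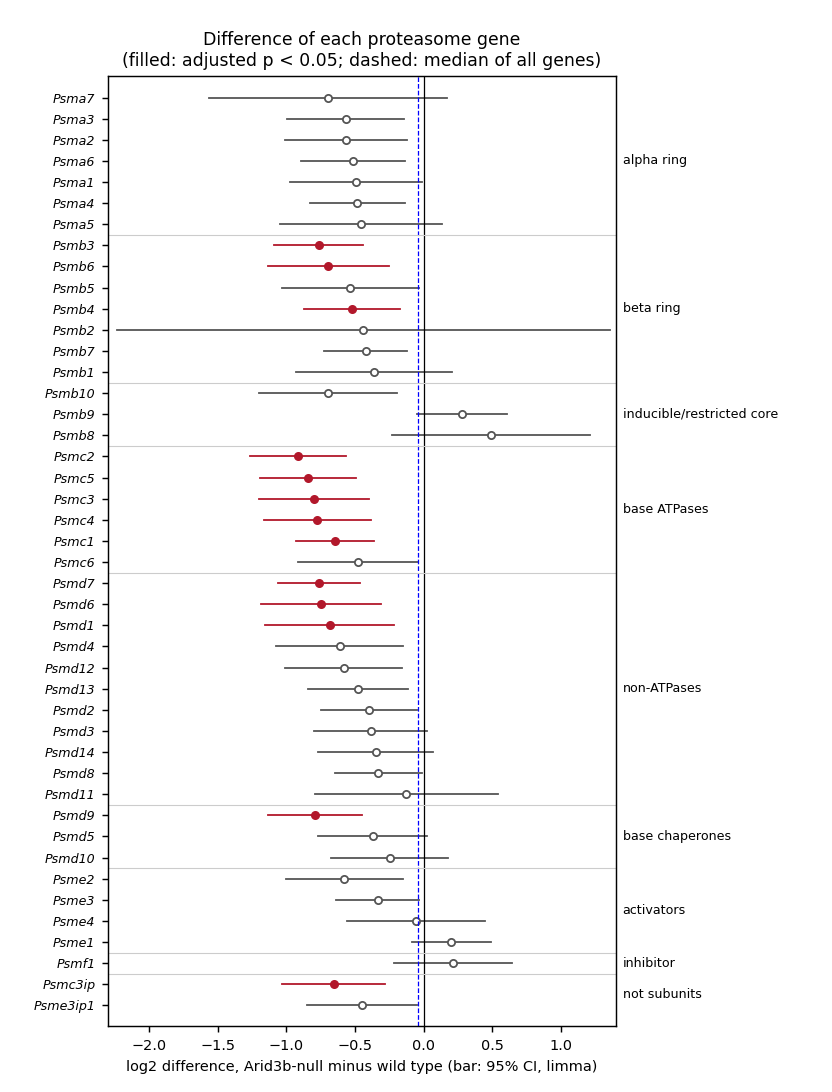
Log2 difference, null minus wild type, of each of the 44 measured genes (rows, grouped by role) with its 95% confidence interval from limma (3 arrays per group); filled red points have an adjusted p under 0.05 over all genes and the dashed line is the median of all genes, -0.04. All 31 standard core and regulatory subunits lie left of 0, and Psme1, Psmf1, Psmb8 and Psmb9 lie right of it.

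The standard core subunits also had negative differences without exception, 14 of 14, with a median of -0.52, and 3 of them fell, all in the beta ring. Psmb3, a structural beta subunit, was at 5.67, 5.50 and 5.36 in wild type and 4.71, 4.83 and 4.69 in null heads (-0.77 ± 0.14, limma adjusted p of 0.010). Psmb6, which carries the caspase-like site, was at 6.39, 6.0 and 5.77 against 5.29, 5.51 and 5.28 (-0.69 ± 0.19, limma adjusted p of 0.0380). Psmb4 was at 5.75, 5.55 and 5.36 against 4.96, 5.13 and 5.0 (-0.52 ± 0.15, limma adjusted p of 0.0440, and 0.0594 in the fit blocked by slide, where the call was lost). In these 3 genes the groups were apart, with wild type replicate 3 the nearest to the null arrays.

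The other beta subunits did not pass, the catalytic Psmb5 and Psmb7 among them. Psmb5, with the chymotrypsin-like site that proteasome drugs target, was at 6.86, 6.68 and 6.13 in wild type and 5.97, 6.20 and 5.90 in null heads (-0.53 ± 0.21, limma adjusted p of 0.113), and its groups overlapped. Its dimmer probe gave -0.56 ± 0.14 with the groups apart (adjusted p of 0.0343 in the limma fit over 26288 probes). Psmb7, with the trypsin-like site, had a difference of -0.42 ± 0.13 and groups apart (limma adjusted p of 0.0547). Psmb1 was at 3.43, 3.37 and 2.67 against 2.52, 2.93 and 2.92 (-0.36 ± 0.24, limma adjusted p of 0.316), with overlapping groups. Psmb2 was at 1.75, 1.61 and -1.07 against -0.08, 1.10 and -0.06. Wild type replicate 3 was the lowest array of this gene, and its interval was the widest of all members (-0.44 ± 0.76, 95% confidence interval -2.24 to 1.36).

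In the alpha ring none of the 7 subunits passed the test in limma. At an unadjusted p under 0.05, 5 were lower and none higher, and array weights called all 7 lower. The differences lay close together, from -0.70 for Psma7 to -0.45 for Psma5, and the adjusted p ran from 0.0527 for Psma4 to 0.231 for Psma5. Psma7 was at 5.58, 5.30 and 4.25 in wild type and 4.16, 4.78 and 4.09 in null heads (-0.70 ± 0.37, limma adjusted p of 0.213). Psma5 was at 4.70, 4.57 and 3.86 against 3.87, 4.18 and 3.71 (-0.45 ± 0.25). In both genes wild type replicate 3 lay among the null arrays. The groups were apart for Psma2 (-0.57), Psma3 (-0.57), Psma4 (-0.48) and Psma6 (-0.51) and overlapped for Psma1 (-0.49).

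Wild type replicate 3 thus lay mostly low within the core. It was the lowest of the wild type arrays for 12 of 14 standard core subunits and the highest for 2. Over all genes it was the lowest for 48.0% and the highest for 35.7%. Among 17 regulatory subunits it was the lowest for 8 and the highest for 8, so it deviated there in both directions. These counts rest on the probe that stands for each gene. The dimmer probes of Psmc3 and Psmd12 had replicate 3 highest in wild type, where the brighter had it lowest. That of Psmb5 was nearly level, at 4.42, 4.42 and 4.41. In Psma4, Psmc2, Psmd10 and Psme2 both probes placed it alike. Across genes, wild type arrays correlated at 0.977 to 0.986 and null arrays at 0.992 to 0.993. Relative to each gene's wild type mean, the median core subunit was at 0.27, 0.06 and -0.29 on the wild type arrays and at -0.63, -0.35 and -0.66 on the null arrays. For the regulatory particle these medians were 0.03, -0.02 and -0.01 in wild type and -0.60, -0.61 and -0.66 in null heads. Within slides 1, 2 and 3 the median core difference was uneven, at -0.89, -0.48 and -0.29, while that of the base ATPases was -0.73, -0.78 and -0.78. Over all genes the median was -0.06, -0.01 and -0.03. Single ATPases were less even than their median, and in opposite ways. Psmc4 was at -0.45, -0.94 and -0.93 on these slides, and Psmc6 at -0.84, -0.33 and -0.27. Psmc5 also had its smallest difference on slide 1, while Psmc2 and Psmc3 had their greatest there. Psmc1 was at -0.63, -0.59 and -0.72.

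Leaving out wild type replicate 3 called 28 members lower, including all 13, with 12 of 14 core subunits among them, where 18.0% of all genes were then called lower. Leaving out null replicate 1 left 3 members called (4.05% of all genes), namely Psmc2, Psmc5 and Psmd7, which fell under every alternative. Each other left-out array gave 7 members, where 6.01% and 6.35% of all genes were lower without wild type replicates 1 and 2, and 5.40% and 5.26% without null replicates 2 and 3. Psmb4, Psmb6, Psmd1 and Psmd6 lost their call whenever any array but wild type replicate 3 was left out. Core and regulatory medians were not tested against each other.

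The count of members that fell moved with the processing, in part together with the count over all genes. Array weights called 35 members (23.2% of all genes lower), an intensity trend with robust variance 23 (12.6%), and normexp background correction 20 (10.9%). The mean of probes gave 16 (11.4%), the block by slide 15 (11.8%), median centring 14 (11.5%), and probes above background on all 6 arrays 14 of 43 (11.5%). Quantile normalization gave 12 (9.90%) and no filter on dim probes 8 (5.16%). The deposited value table held 22 of the members and called 6 (10.6%).

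**Figure D4:**
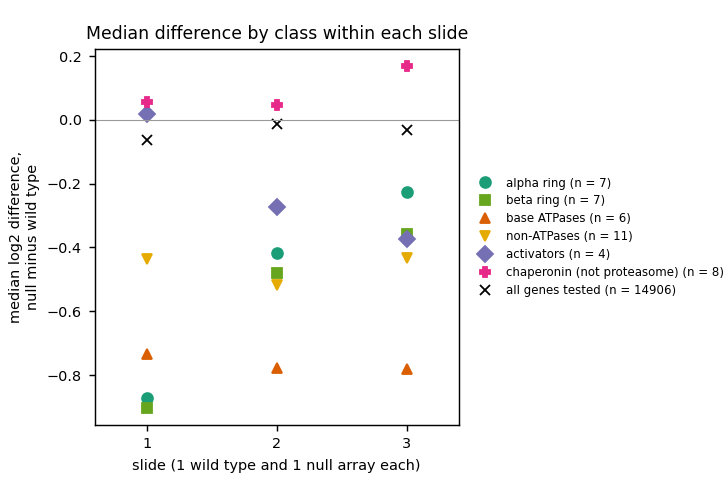
Median log2 difference, null minus wild type (vertical axis), within each of the 3 slides (horizontal axis, 1 array per group on each) for classes of proteasome genes, the chaperonin and all genes. The median of the base ATPases lies between -0.73 and -0.78 on every slide, though single ATPases, not drawn, varied more. The medians of the alpha and beta rings run from -0.87 and -0.90 on slide 1 to -0.23 and -0.36 on slide 3.

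Of the chaperones that assemble the ATPase ring 1 of 3 fell, and their median was -0.37. Psmd9 was at 0.53, 0.46 and 0.62 in wild type and -0.39, -0.34 and -0.05 in null heads, with the groups apart, and fell (-0.79 ± 0.15, limma adjusted p of 0.0105). Its other probe gave -0.91. Psmd5 was at 1.30, 1.35 and 0.89 against 0.66, 0.82 and 0.93 (-0.37 ± 0.17, limma adjusted p of 0.157). Psmd10, known as gankyrin, was at -0.12, 0.13 and -0.30 against -0.57, -0.11 and -0.36 (-0.25 ± 0.18, limma adjusted p of 0.359). Neither of the last pair passed, and in both wild type replicate 3 lay among the null arrays. The probes of Psmd10 differed most among the 10 members with 2 probes: the dimmer one gave -0.77 with the groups apart. In the other 9 members the 2 probes were within 0.25 of each other, and in all 10 their signs were the same.

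None of the activators passed the test in limma, and they differed in sign. At an unadjusted p under 0.05, 2 were lower and none higher. Psme1 and Psme2 form a mixed ring that caps the core in the cytosol. Psme1 was at 2.52, 2.47 and 2.59 in wild type and 2.76, 2.64 and 2.77 in null heads, with every null array above every wild type array (0.20 ± 0.12, 95% confidence interval -0.09 to 0.49, limma adjusted p of 0.278). Its partner Psme2 was at 3.73, 3.54 and 3.22 against 2.92, 3.11 and 2.73, with every null array below (-0.58 ± 0.18, limma adjusted p of 0.0595, and 0.0414 in the fit blocked by slide, which called it lower). The 2 probes of Psme2 were alike, at -0.58 and -0.56, and the dimmer one passed in the limma fit over 26288 probes (adjusted p of 0.0480). The difference between the members of this pair was not tested.

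Psme3, which forms a nuclear cap of its own, was at 0.27, 0.35 and 0.22 in wild type and 0.06, -0.15 and -0.08 in null heads, with the groups apart (-0.34 ± 0.13, limma adjusted p of 0.102). Psme4, a large nuclear activator, was at 0.43, 0.82 and 1.24 against 0.81, 0.71 and 0.80, and the null arrays lay within the wild type range (-0.06 ± 0.21, 95% confidence interval -0.56 to 0.45). The inhibitor Psmf1 was at -0.81, -0.58 and -0.58 against -0.57, -0.65 and -0.10, with overlapping groups (0.22 ± 0.18, 95% confidence interval -0.21 to 0.65). The median of the 4 activators was -0.20, and -0.11 without wild type replicate 3.

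Among the inducible and tissue-restricted core subunits none of the 3 tested passed in limma, with 1 lower and none higher at an unadjusted p under 0.05. Psmb8, Psmb9 and Psmb10 replace the catalytic beta subunits in the immunoproteasome of immune and interferon-treated cells. Psmb10 was at 2.86, 2.69 and 2.26 in wild type and 1.76, 2.22 and 1.75 in null heads, with the groups apart (-0.70 ± 0.21, limma adjusted p of 0.0554, and 0.0433 in the fit blocked by slide, which called it lower). Psmb9 was at -4.80, -4.70 and -4.77 against -4.68, -4.38 and -4.39, every null array above every wild type array (0.28 ± 0.14, 95% confidence interval -0.05 to 0.61). Psmb8, well above background on all 3 null arrays but on only 1 wild type array, was at -6.34, -6.62 and -7.54 against -6.16, -6.42 and -6.44 (0.49 ± 0.30, 95% confidence interval -0.23 to 1.21). With normexp correction Psmb9 and Psmb8 were at -0.05 and -0.10, so neither has a settled direction.

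The testis subunit Psma8 was not well above background on any of the 6 arrays, and the thymus subunit Psmb11 only on wild type replicate 3; no difference is given for them. Of the pair that are not subunits, Psmc3ip was at 0.54, 0.63 and 0.47 in wild type and -0.31, -0.17 and 0.15 in null heads and fell (-0.65 ± 0.16, limma adjusted p of 0.0263). Psme3ip1 had a difference of -0.45 ± 0.17 and groups apart (limma adjusted p of 0.100). Without this pair 12 of 42 genes fell and none rose, with a median of -0.50.

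Other genes of the pathway were taken from lists. Of 15 measured genes for assembly and accessory proteins 4 fell and none rose (none was higher at an unadjusted p under 0.05 either), with a median of -0.42. Adrm1, a ubiquitin receptor on the regulatory particle, was at 3.49, 3.53 and 3.56 in wild type and 2.60, 2.54 and 2.77 in null heads, 1.85-fold lower with the groups apart (-0.89 ± 0.13, limma adjusted p of 0.00467). Psmg3, an assembly chaperone of the core, fell (-0.94 ± 0.19, limma adjusted p of 0.0158), as did Pomp, which helps the core mature (-0.65 ± 0.15, limma adjusted p of 0.0244). Zfand2a, a stress-induced proteasome partner, also fell (-0.70 ± 0.16, limma adjusted p of 0.0243). Of 16 alternatives at the same threshold, Adrm1 kept its call in all, Psmg3 lost it in 3, Zfand2a in 6 and Pomp in 7, Pomp being at -0.33 in the deposited value table. The small lid subunit Sem1, with groups apart, did not pass (-0.60 ± 0.18, limma adjusted p of 0.0564). Psmg1, Psmg2 and Psmg4 were at -0.46, -0.06 and -0.53, and Usp14 and Uchl5, deubiquitinases that bind the proteasome, at -0.17 and -0.38.

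Among 10 regulators of proteasome gene expression 1 rose and 1 fell, with a median of 0.33. This median leans on Ngly1, at 0.31, which passed the filter only through the null arrays. Over the alternatives Ngly1 ran from -0.14 to 0.53. Nfe2l1 was at -2.01, -1.77 and -0.66 in wild type and -0.66, -1.15 and -0.74 in null heads, with overlapping groups (0.63 ± 0.35, 95% confidence interval -0.21 to 1.47, limma adjusted p of 0.242). Ddi2, the protease that cleaves and activates the Nfe2l1 protein, was at 0.38, 0.59 and 0.84 against -0.0033, -0.09 and 0.08 and fell (-0.61 ± 0.16, limma adjusted p of 0.0332). Maff, a small Maf protein that pairs with such factors, was at -2.22, -1.71 and -2.34 against -0.54, -0.34 and -0.81, 2.88-fold higher (1.52 ± 0.21, limma adjusted p of 0.00433). The groups were apart for both Ddi2 and Maff; the call of Ddi2 was lost in 5 of 16 alternatives and that of Maff in none.

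Of 18 genes that supply ubiquitin or deliver substrates 3 fell and none rose, with a median of -0.12. At an unadjusted p under 0.05, 1 was higher. Ufd1 and Nploc4, which together bind the unfoldase Vcp, fell (-0.73 ± 0.18 and -0.74 ± 0.15, limma adjusted p of 0.0304 and 0.0148), and Vcp itself was at -0.43 ± 0.20 (limma adjusted p of 0.164). Ubqln1, a shuttle for tagged proteins, fell as well (-0.46 ± 0.13, limma adjusted p of 0.0445), a call lost in 8 of 15 alternatives, the fit blocked by slide among them. Of 16 alternatives Ufd1 lost its call in 5 and Nploc4 in 2. The ubiquitin genes Ubb and Rps27a had differences of -0.34 and 0.0015, and neither passed. Rps27a was at -1.55 in the deposited value table, where it was called.

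Genes of antigen presentation and the interferon response, many of which share inducers with the immunoproteasome, were taken as another list, of which 10 were measured. Tap1, the peptide transporter gene that lies between Psmb9 and Psmb8 in the gene order of chromosome 17, was not well above background on any wild type array and was on all 3 null arrays, so it passed the filter only through the null group and is not counted as a rise. On the processed signal it was higher by a bound of 1.66-fold. Its limma adjusted p of 0.00354 rests on the measured wild type values, which were not well above background, and not on this bound. For this bound each wild type array contributed whichever was greater, the Tap1 signal or the dimmest signal counted as well above background. Normexp background correction put the difference at -0.01 and ended the call, so no least rise is established beyond the processed signal. Of the other 9 genes Irf9, a factor of interferon signalling, fell (-0.82 ± 0.16, limma adjusted p of 0.0123). Tapbp and H2-D1 were higher with the groups apart but did not pass (0.51 ± 0.17 and 0.32 ± 0.18, limma adjusted p of 0.0701 and 0.232). With Tap1 included, 5 of the 10 differences were positive and 5 negative, with a median of 0.13. Nlrc5, among the positive ones, also passed the filter only through the null arrays.

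The chaperonin, a folding complex of 8 subunits, served as another large ATP-dependent complex. None of its subunits passed the test in limma; at an unadjusted p under 0.05, Cct6a alone was lower and none was higher. The median subunit was at 0.12 (0.06, 0.05 and 0.17 by slide), and differences ran from -0.45 for Cct6a to 0.31 for Cct4. The 2 complexes were not tested against each other.

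Most proteasome probes were bright, and differences over all genes varied with brightness. The 14906 genes were divided by mean signal into 10 groups of like size. In the brightest group the median difference was -0.18, with 15.4% of genes lower and 4.56% higher. This group held 22 of the 44 members, with differences of -0.91 to -0.39, a median of -0.58, and 9 genes that fell. It also held 7 of the 8 chaperonin subunits. The next group held 9 members, with a median of -0.48, of which 2 fell. Over all genes in that group the median difference was -0.11, and 13% were lower. Of the 10 members in the 3 groups below that 2 fell, Psmd9 and Psmc3ip, which is not a subunit. In these groups between 10.1% and 12.5% of all genes were lower. The 3 members in still dimmer groups, Psmf1, Psmb9 and Psmb8, had positive differences. The part of brightness in the members' differences was not tested.

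**Figure D5:**
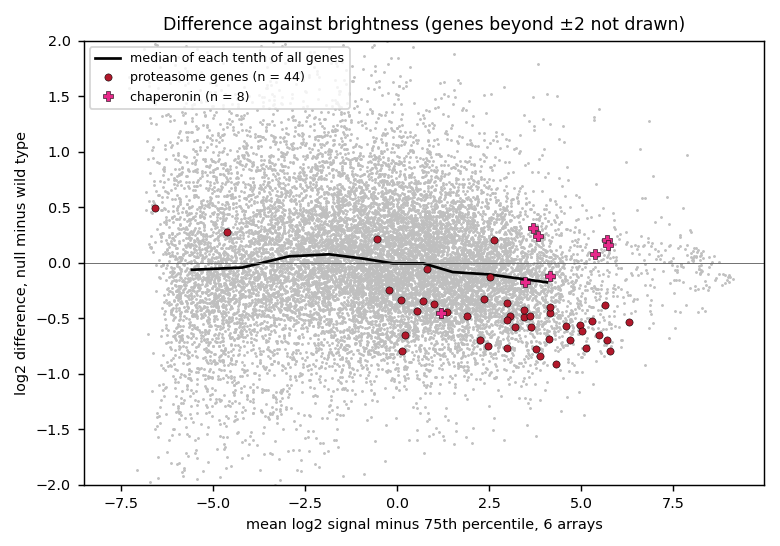
Log2 difference, null minus wild type (vertical axis), against the mean log2 signal over 6 arrays minus the 75th percentile (horizontal axis) for all genes (grey), the 44 proteasome genes (red) and 8 chaperonin subunits (pink); the line joins the medians of 10 groups of all genes by brightness. The line ends at -0.18 in the brightest group, where the 22 proteasome genes lie at -0.39 and below.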

How the data were processed

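RNA was amplified with Cy3 label for one-colour arrays, per the labels' protocols. The deposited scanner files, from Agilent Feature Extraction, hold an intensity per spot after background subtraction and detrending, raw median intensities and quality flags, per the file headers. The authors also deposited a table of log2 values (24181 rows, array medians 6.76 to 6.77), used as an alternative; the sources used here do not say how it was scaled.

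The analysis took log2 of each processed signal and subtracted the array's 75th percentile over non-control spots. Spots with an outlier flag (84 to 156 an array) were dropped and replicate spots averaged. The files used here hold no gene name column, so 26424 of 39429 probes were named through RefSeq accessions (GRCm38.p6, used for names, gene order and promoter sequence). A probe was kept (26288) if well above background on all arrays of a group and present on 5 or more arrays, and the brightest stood for a gene. Groups were compared with limma 3.58.1 in R 4.3.3 (lmFit, eBayes, Benjamini-Hochberg adjustment); 3 arrays per group limit precision.

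Slides and scans each paired a wild type with a null array of like replicate number. Same-numbered arrays were checked for shared deviations, and the comparison used no block. The steps were tested on simulated data. Members, lists and the rule for named genes (members that passed, all of the small classes, and the extremes of the others) were chosen with earlier results of these data known. Alternatives were background correction, scaling, filter, probe rule, variance model, array weights, slide block, threshold and each array left out. Single values of some list genes are not reported here.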

Additional observations from a re-analysis of the deposited data

How the results depend on the processing

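No alternative called any member higher, and between 38 and 42 of 44 members had a negative difference in every setting that tested all 44. The number of members that fell, 13, was 20 with normexp on median signals (offset 50), 23 with an intensity trend and robust variance, 35 with array weights, 8 without the filter on dim probes, 3 at an adjusted p under 0.01, and 6 of 22 measured in the deposited value table; leaving out 1 array gave 3 (without null replicate 1) to 28 (without wild type replicate 3). Quantile normalization gave 12, median centring 14, the mean of probes 16, probes above background on all 6 arrays 14 and the replicate block 15. The count over all genes, 3506, was 2270 without the filter, 6684 with array weights, 1272 at an adjusted p under 0.01, and 1462 to 5209 with 1 array left out. Same-numbered arrays shared a slide, and their deviations from the group means correlated across genes at -0.20, 0.15 and 0.42 for numbers 1, 2 and 3, so the numbers were not taken as pairs; under the replicate block Psmb4 lost its call.

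The median over all genes, -0.04, was -0.09 with normexp, 0.01 with quantile normalization, -0.07 with median centring, 0.02 in the deposited table and -0.11 without the filter. The median of the regulatory particle, -0.61, was -0.43 with quantile normalization, -0.64 with median centring, -0.67 with array weights, and -0.54 to -0.67 with 1 array left out. For the base ATPases, -0.79, it was -0.64 with quantile normalization, -0.81 with median centring, -0.67 in the deposited table (Psmc2, Psmc4 and Psmc5 alone), -0.73 for the mean of probes, -0.71 with array weights and -0.71 to -0.80 with 1 array left out. For the non-ATPases, -0.48, it was -0.33 with quantile normalization, -0.42 in the deposited table (Psmd6, Psmd7, Psmd11, Psmd12, Psmd13 and Psmd14 alone) and -0.39 to -0.50 with 1 array left out. The base chaperone median, -0.37, was -0.82 in the deposited table. The activator median, -0.20, was -0.35 in the deposited table (3 genes) and -0.11 without wild type replicate 3. Medians of the standard core, alpha ring and beta ring moved by less than their spread between slides, but in the deposited table they rest on 2, 1 and 1 genes. Psmb2, Psmd11 and Psme4 turned positive, though not called, in at least 1 alternative that weighted or left out arrays, and Psmb8 and Psmb9 negative with normexp. A fit over all probes did not call Psmb4, Psmb6 and Psmd1. Of the 13 calls, 3 (Psmc2, Psmc5 and Psmd7) held under every alternative. Of the 31 members not called, 23 were called lower in at least 1 alternative; Psmb8, Psmb9, Psmd3, Psmd11, Psmd14, Psme1, Psme4 and Psmf1 were not. Tap1 was at -0.01 with normexp, and Rps27a at -1.55 in the deposited table. The cause of these changes was not tested.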
